A study of Mus musculus with 4 samples.

Results

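H19, Dlk1, Meg3, Rian, Peg3, Mest, Plagl1 and Grb10 are 8 imprinted genes linked to growth and to muscle stem cells, and their UMIs were examined in single cells sorted as myogenic progenitors from regenerating mouse muscle. Their rows were found by symbol in the gene lists. Of the 8, 5 had a row among the 25827 genes counted: Peg3 (ENSMUSG00000002265), Mest (ENSMUSG00000051855), Plagl1 (ENSMUSG00000019817), Grb10 (ENSMUSG00000020176) and Dlk1 (ENSMUSG00000040856). The 3 non-coding members, H19, Meg3 and Rian, were not analysed here.

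An imprinted gene is transcribed mainly or only from the allele inherited from 1 of the parents, under the control of DNA methylation set in the germ line, and many imprinted genes act on growth before and after birth. In adult muscle, satellite cells, the stem cells that carry the transcription factor Pax7, activate after injury, divide as myoblasts, and then exit the cycle, turn on myogenin (Myog) and fuse; several imprinted genes are used as marks of stem or progenitor states along that path. A UMI (unique molecular identifier, 1 counted RNA molecule) does not show which parental allele it came from, so the values below are totals of both alleles.

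Each of the 4 libraries pooled cells of 3 mice aged 12 weeks, taken 6 days after cardiotoxin had been injected to injure the tibialis anterior. The 2 Pax7Cre libraries are the controls, which carry the Cre recombinase driven by Pax7 and an intact miR-501 locus; the 2 miR-501KO libraries come from littermates with the same Cre and a floxed X-linked miR-501 allele (Pax7CremiR-501fl/Y). All groups thus carry Pax7Cre and were injured, no uninjured muscle was included, and the deletion is limited to cells of the Pax7 lineage. Cells had been sorted for alpha7 integrin and against CD45, CD31 and Sca1. Replicate numbers are the run numbers, and each run held both genotypes.

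Of 16519 barcodes, 10450 cells had at least 5000 UMIs and 1000 genes, 1829 to 3439 in a library, with 71843320 to 114211047 UMIs summed per library and a median of 25254 to 34579 UMIs per cell. Libraries shared 3 to 7 barcodes with the others. Cells were clustered without the 8 genes and without the listed imprinted and growth-signalling genes, and 19 clusters were obtained. By marker genes, 2442 cells were quiescent-like, 2405 cycling-like and 1350 committed-like, and 345 macrophage-like, 263 mural-like, 195 Schwann-like and 108 fibroblast-like cells were also present, which the label of myogenic progenitors does not cover. The quiescent-like cells held Pax7 at 183 to 223 and Myf5 at 337 to 400 CPM (counts per 1000000 UMIs), the committed-like cells held Pax7 at 8.49 to 10.1 CPM and Myog at 3282 to 4398 CPM. Of the quiescent-like clusters, cluster 17 held 82 cells, cluster 2 was led by interferon-induced genes such as Iigp1 and Gbp2, and cluster 5 by Nppc and Chodl. The remaining 3342 cells lay in clusters without a name. Clusters 7 and 16 drew over 90% of their cells from the library miR-501KO replicate 1 and made up 26.6% of it, so levels of the 5 genes over all cells are also given without them. Of 12 committed-like markers, cluster 7 raised 8 and cluster 16 raised 12. Markers of macrophage-like cells in cluster 7 and of Schwann-like cells in cluster 16 were raised too, so neither was named.

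The sequences that bear on the design are those of the deleted microRNA and of the promoters of Peg3, Mest and Plagl1. Relative to total UMIs, these 3 genes were lower in both other classes than in quiescent-like cells, in every library and at every setting tried. A microRNA binds messenger RNAs through its seed, bases 2 to 8 from its 5′ end. In the RefSeq table for GRCm38.p6, both arms of miR-501 lie on the minus strand of chromosome X, at chrX:7241270-7241291 for miR-501-3p and chrX:7241307-7241328 for miR-501-5p, and the seed is in capitals in each.
miR-501-3p: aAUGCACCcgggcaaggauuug
miR-501-5p: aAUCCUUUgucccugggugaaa
The site that pairs with the 3p seed, GGTGCAT, was found in none of the 3′ UTRs of Peg3, Mest, Plagl1, Grb10 and Dlk1, the longest per gene in GENCODE M21 (1296 to 3614 bases), against 6.11% of 20968 genes that hold it. The site of the 5p seed, AAAGGAT, was found once, in the Grb10 3′ UTR at base 1014 of 2955, and 11.5% of genes hold it. That stretch is shown because it is the only match to either seed among these genes, with the match in capitals.
Grb10 3′ UTR: gtggggttAAAGGATcgaaagag
By the authors' account of their earlier sequencing, the 5p arm was not expressed in activated myogenic progenitors, and their results refer to miR-501-3p. A match is a run of letters and not a measured binding site. miR-501 itself is not measured by these libraries, which count the 3′ ends of polyadenylated RNA.

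Promoter windows of 300 bases, from 250 before to 50 after a start site, were read from RefSeq for GRCm38.p6, while the deposited files name GRCm39. All 5 genes matched, Mest with 3 windows and Grb10 with 2. The E-box CANNTG, the core letters to which MyoD and myogenin bind, was searched on both strands, on which it reads alike, and is in capitals below; CAGCTG is 1 form of it and is counted within it. Shown are Peg3 at chr7:6730370-6730669 (minus strand), the Mest window at chr6:30737800-30738099 (plus strand) and Plagl1 at chr10:13090582-13090881 (plus strand).
Peg3: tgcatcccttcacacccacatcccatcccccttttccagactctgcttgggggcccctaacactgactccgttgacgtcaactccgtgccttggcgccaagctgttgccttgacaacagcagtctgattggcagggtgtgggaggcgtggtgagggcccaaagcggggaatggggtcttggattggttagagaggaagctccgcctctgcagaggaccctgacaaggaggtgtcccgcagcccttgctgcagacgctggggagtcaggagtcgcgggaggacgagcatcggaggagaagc
Mest: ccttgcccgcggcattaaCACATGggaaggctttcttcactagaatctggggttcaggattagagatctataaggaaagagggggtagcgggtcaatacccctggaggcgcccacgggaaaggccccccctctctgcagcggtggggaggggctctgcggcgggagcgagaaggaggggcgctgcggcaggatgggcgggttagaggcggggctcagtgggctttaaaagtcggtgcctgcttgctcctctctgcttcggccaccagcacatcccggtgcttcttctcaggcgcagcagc
Plagl1: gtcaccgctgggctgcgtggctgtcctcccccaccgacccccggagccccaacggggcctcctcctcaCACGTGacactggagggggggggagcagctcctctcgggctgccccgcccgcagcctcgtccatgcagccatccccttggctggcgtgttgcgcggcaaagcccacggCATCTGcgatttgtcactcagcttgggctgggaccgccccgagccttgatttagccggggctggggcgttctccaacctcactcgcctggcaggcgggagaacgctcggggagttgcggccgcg
CANNTG occurred 2 times in the Plagl1 window, as CACGTG and CATCTG, 1 time in the Mest window shown, as CACATG, and 0 times in the Peg3 window, and 72.3% of all 32851 promoter windows held at least 1. The other Mest start, at chr6:30733256-30733555, had 2, CAGCTG and CACCTG, and CAGCTG was present in 16.3% of all windows. Of the Grb10 windows, 1 had none and 1 had CACTTG, and the Dlk1 window had none. CpG pairs, the sites of imprint methylation, numbered 13 in the Peg3 window, 17 in the Mest window shown, 26 in that of Plagl1 and 9 in that of Dlk1, with a median of 7 over all windows, and the Grb10 window at chr11:12037371-12037670 (minus strand) held 45, and 98.1% of all windows held fewer.

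Among the 7 named cell classes, Peg3, Mest and Plagl1 were each highest in quiescent-like cells in all 4 libraries. In CPM, which is a share of all UMIs, they were lower in cycling-like and committed-like cells. The median depth was 20647 to 26896 UMIs in quiescent-like, 43469 to 50182 in cycling-like and 33551 to 39978.5 in committed-like cells. Counted per cell, Peg3 and Mest UMIs were not lower in cycling-like than in quiescent-like cells in any library. Plagl1 UMIs per cell were lower there in every library. In cluster 1, which has no name, Mest was 0.884 to 1.14 times its quiescent-like level. Plagl1 differed most, being 6.62 to 9.48 times as high in quiescent-like as in committed-like cells of the same library. Grb10 was nearly level across the 3 classes, and the level of Dlk1 was highest in mural-like cells. The comparison of classes asks how these genes stand along the path from stem cell to committed myocyte, and it used 12 sums, 3 classes in each of 4 libraries, with the library as a block in edgeR's quasi-likelihood test.

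**Figure D1:**
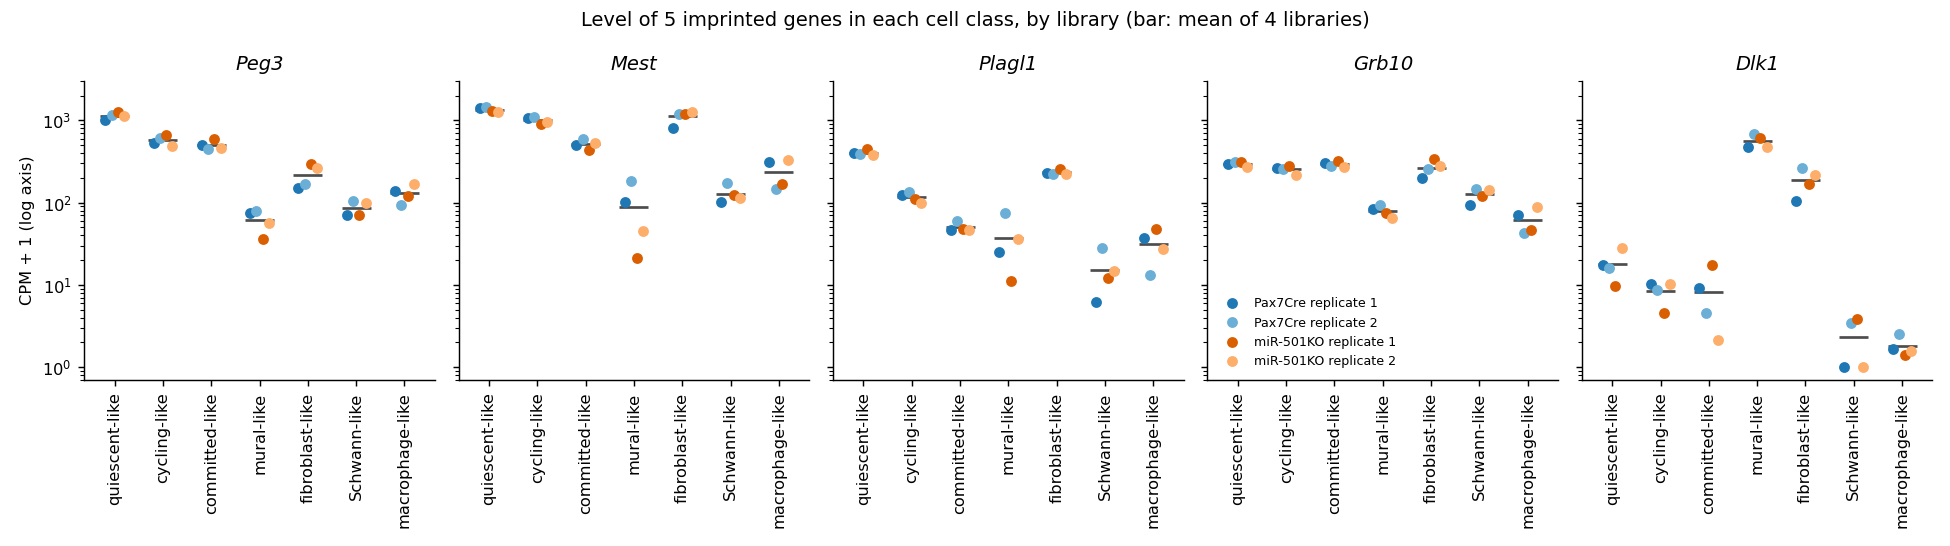
Level of Peg3, Mest, Plagl1, Grb10 and Dlk1 (CPM + 1, log axis) in 7 cell classes, with 1 point for each of the 4 libraries and a bar at their mean. Peg3, Mest and Plagl1 are highest in quiescent-like cells, Grb10 lies between 216 and 318 CPM in all 3 myogenic classes, and Dlk1 is highest in mural-like cells at 468 to 672 CPM.

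Plagl1, also called Zac1, encodes a zinc finger transcription factor that restrains the cell cycle. In the quiescent-like class its level was 397 and 391 CPM in Pax7Cre replicates 1 and 2 and 443 and 376 CPM in miR-501KO replicates 1 and 2. In cycling-like cells it was 121, 133, 109 and 96.4 CPM in the same order, and in committed-like cells 45.7, 59.1, 46.8 and 45.1 CPM. The ranges of the 3 classes did not overlap. The fitted log2 fold change was -2.86 (SE 0.08) for committed-like against quiescent-like cells (edgeR adjusted p = 6.4e-13) and -1.74 (SE 0.07) for cycling-like against quiescent-like cells (edgeR adjusted p = 6.0e-11). After each cell had been thinned to 5000 UMIs, 69.2 to 75.0% of quiescent-like cells had a Plagl1 UMI, against 33.8 to 41.7% of cycling-like and 18.3 to 27.7% of committed-like cells; before thinning the shares were 90.3 to 95.2%, 73.1 to 83.4% and 54.1 to 67.2%. Macrophage-like cells, which are not of the myogenic lineage, had shares of 5.06 to 7.55% after thinning, at a median depth of 16915 to 20823.5 UMIs against 20647 to 26896 in quiescent-like cells.

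Peg3 encodes a large zinc finger protein that marks many adult stem and progenitor cells. Its level in quiescent-like cells was 1010 and 1167 CPM in the Pax7Cre replicates and 1267 and 1113 CPM in the miR-501KO replicates. It was 529, 601, 662 and 483 CPM in cycling-like cells and 496, 441, 596 and 455 CPM in committed-like cells. Quiescent-like cells stood above both other classes in every library, whereas cycling-like and committed-like cells overlapped. The log2 fold change against quiescent-like cells was -1.02 (SE 0.06) in committed-like cells (edgeR adjusted p = 4.2e-09) and -0.94 (SE 0.06) in cycling-like cells (edgeR adjusted p = 1.35e-08). Thinned to 5000 UMIs, 95.9 to 98.0% of quiescent-like and 75.9 to 87.2% of committed-like cells had a Peg3 UMI, and 10.0 to 25.3% of macrophage-like cells.

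Mest, also called Peg1, encodes a protein of the alpha/beta hydrolase fold and carries the microRNA miR-335 in an intron. Its level in quiescent-like cells was 1402 and 1447 CPM in the Pax7Cre replicates and 1279 and 1274 CPM in the miR-501KO replicates. In cycling-like cells it was 1068, 1082, 889 and 958 CPM, and in committed-like cells 497, 592, 438 and 529 CPM. In CPM, the classes were ordered alike in all 4 libraries and their ranges did not overlap. After the thinning used for Plagl1, 88.1 to 97.2% of quiescent-like and 88.4 to 93.5% of cycling-like cells had a Mest UMI. The share was 56.4 to 72.5% in committed-like cells. In Pax7Cre replicate 1, 949 cycling-like cells held 48233 Mest UMIs and 727 quiescent-like cells held 23466. The log2 fold change was -1.22 (SE 0.05) in committed-like cells (edgeR adjusted p = 5.2e-11) and -0.36 (SE 0.05) in cycling-like cells (edgeR adjusted p = 1.4e-05), both against quiescent-like cells. Mest was also high in the fibroblast-like cells, at 797 to 1259 CPM, a range that overlapped that of cycling-like cells. These were 11 to 61 cells in a library, led by Thbs4 and Tnmd beside Lum and Dcn, and their median depth ran from 8931 to 45972 UMIs.

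Grb10 encodes an adaptor that binds the activated insulin and IGF1 receptors and dampens their signal. Its level was 293, 310, 311 and 267 CPM in quiescent-like cells, 262, 256, 277 and 216 CPM in cycling-like cells, and 301, 279, 318 and 269 CPM in committed-like cells. The ranges of all 3 classes overlapped. For committed-like against quiescent-like cells the log2 fold change was 0.16 (SE 0.04, edgeR adjusted p = 0.0047) with TMM factors and -0.02 (edgeR adjusted p = 0.72) when each sum was scaled by its total, and -0.0038 (edgeR adjusted p = 0.98) when cells were classed by Myog and Pax7 UMIs, so no direction held. For cycling-like against quiescent-like cells it was -0.15 (SE 0.04, edgeR adjusted p = 0.0067), a fold of 1.11, and the adjusted p was 0.065 in edgeR without a filter on low counts. Outside the myogenic classes, Grb10 was at 198 to 333 CPM in fibroblast-like, 93.2 to 144 CPM in Schwann-like, 64.1 to 91.9 CPM in mural-like and 41.0 to 86.4 CPM in macrophage-like cells.

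Dlk1 encodes a transmembrane protein with EGF repeats that resembles Notch ligands and restrains differentiation in several lineages. Its level in mural-like cells, the pericytes and smooth muscle cells around vessels, was 477, 672, 604 and 468 CPM, against 104, 265, 169 and 213 CPM in fibroblast-like cells. In quiescent-like cells it was 16.4, 14.9, 8.72 and 26.6 CPM, in cycling-like cells 9.19, 7.68, 3.54 and 9.18 CPM and in committed-like cells 8.19, 3.60, 16.2 and 1.15 CPM. The mural-like level was thus 17.6 to 69.2 times that of quiescent-like cells in the same library. Mural-like cells made up 1.20 to 3.40% of a library and held 28.5 to 55.8% of its Dlk1 UMIs. Thinned to 5000 UMIs, 40.0 to 54.5% of mural-like cells had a Dlk1 UMI, against 2.23 to 4.40% of quiescent-like cells and 0 of 110, 0 of 50, 0 of 106 and 1 of 79 macrophage-like cells in the 4 libraries; those zeros allow shares of up to 2.73%, 6.00% and 2.83%, for counting error only.

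The 3 myogenic classes held 855 and 467 Dlk1 UMIs in the Pax7Cre and 362 and 641 in the miR-501KO replicates. Mural-like cells held 1478, 300, 1204 and 409 in the same order. Those of the myogenic classes lay in few cells. In each library, 96 to 207 of 1233 to 2233 myogenic cells had a Dlk1 UMI, and the 1% of cells richest in Dlk1 held 40.9 to 59.7% of the UMIs, up to 97 in a single cell. Rgs5, which defines mural cells, was at 9173 to 13674 CPM in mural-like cells and at 2.88 to 11.2 CPM in the myogenic classes. The 9 mural markers listed summed to 16080 to 20622 CPM in mural-like cells, 496 to 592 CPM in quiescent-like, 1255 to 1837 CPM in cycling-like and 3456 to 4774 CPM in committed-like cells, and all 9 were detected in the quiescent-like cells of each library. Rgs5 did not follow this sum, at 4.31 to 11.2 CPM in quiescent-like and 2.88 to 4.84 CPM in committed-like cells. The part of mural RNA in the Dlk1 level of progenitors was not tested. For cycling-like against quiescent-like cells the log2 fold change of Dlk1 was -1.07 (SE 0.43, edgeR adjusted p = 0.040), and the adjusted p was 0.090, 0.057 and 0.064 without Pax7Cre replicate 1, Pax7Cre replicate 2 or miR-501KO replicate 2, and 0.24 in DESeq2. For committed-like against quiescent-like cells it was -0.996 (SE 0.49, edgeR adjusted p = 0.085). Without miR-501KO replicate 1 it was -1.83 (edgeR adjusted p = 0.0013). In that library, 97 of the 161 Dlk1 UMIs of committed-like cells came from a single cell.

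Of the 5 genes, 3 were lower and 1 higher in committed-like than in quiescent-like cells, where 36.1% of all 13146 genes tested were called lower and 36.8% higher at an adjusted p under 0.05 in edgeR. All 5 were lower in cycling-like cells, with 35.6% of genes called lower and 35.2% higher. The call of Grb10 in committed-like cells was lost with totals in place of TMM factors, and those of Dlk1 and Grb10 in cycling-like cells in the fits named above. The median log2 fold change was -1.02 over the 5 and 0.00 over all genes for committed-like cells, and -0.94 and -0.03 for cycling-like cells. With totals in place of TMM factors the median over all genes moved to -0.18 and -0.10, and the share of called genes that were higher in committed-like cells moved from 50.4 to 38.3%. When cells with a Myog UMI were compared with cells that had a Pax7 UMI and none of Myog, in place of clusters, the log2 fold changes of Plagl1, Peg3 and Mest were -1.86, -0.77 and -0.56, all below 0 with edgeR adjusted p of 3.2e-06, 0.00084 and 0.0024.

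**Figure D2:**
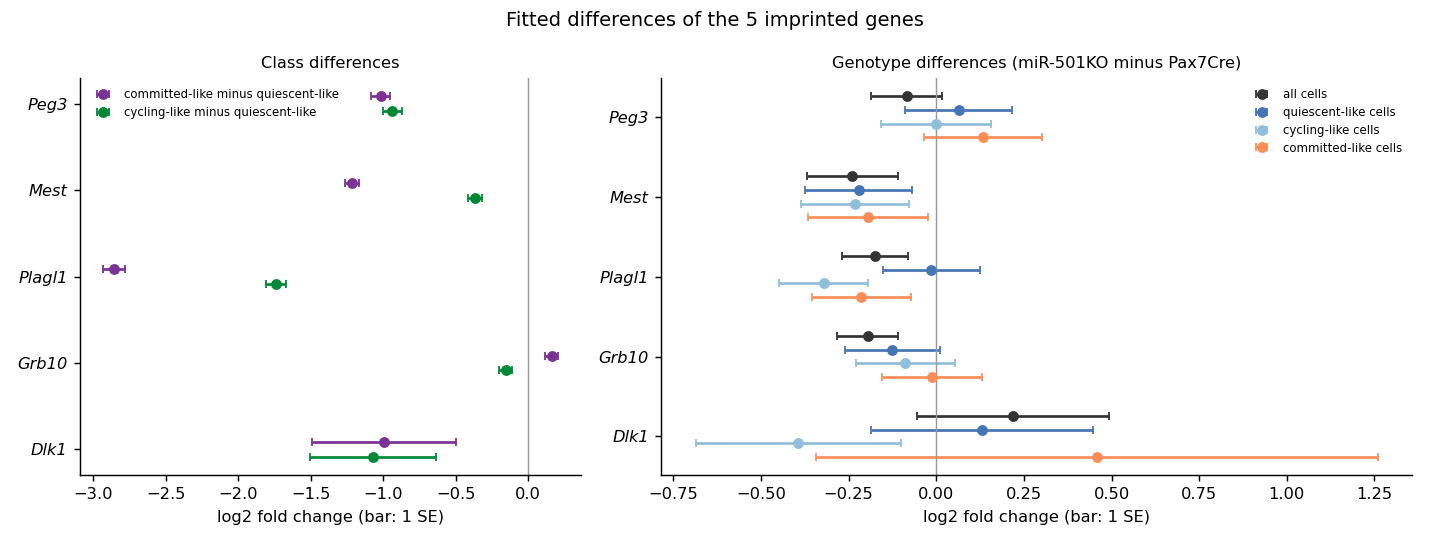
Log2 fold changes with bars of 1 SE from edgeR for the 5 genes. Left: committed-like and cycling-like against quiescent-like cells, where Plagl1 lies farthest below 0 at -2.86 and -1.74. Right: miR-501KO against Pax7Cre over all cells and in 3 classes, where no gene was called and the bars of Dlk1 are the widest.

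Committed-like cells held 2 clusters, 4 and 10. Mest, Plagl1, Peg3 and Grb10 were higher in cluster 4 in 4 of 4 libraries, and Dlk1 in 2 of 4. Cluster 4 held 1002 cells led by Cnr1 and Myog, and cluster 10 held 348 cells led by the embryonic and perinatal myosins Myh3 and Myh8. Mest was at 703, 798, 730 and 735 CPM in cluster 4 and at 71.5, 70.5, 77.7 and 90.6 CPM in cluster 10, 8.11 to 11.3 times lower within a library. In cluster 10 it was 0.232 to 0.488 times its level in macrophage-like cells. The macrophage-like level is no measure of free RNA alone, since 86 of the 190 Mest UMIs in Pax7Cre replicate 2 came from 1 of 50 cells. Plagl1 was at 58.8 to 72.0 CPM in cluster 4 and 9.60 to 26.3 CPM in cluster 10, and 3 of 4 libraries had a lower level in cluster 10 than in macrophage-like cells.

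For Peg3 the level in cluster 4 was 1.02 to 1.95 times that in cluster 10, and for Grb10 1.08 to 1.88 times. Peg3 was at 498, 512, 666 and 484 CPM in cluster 4 and 490, 262, 510 and 394 CPM in cluster 10, which was 2.33 to 4.22 times its level in macrophage-like cells. Grb10 was at 286 to 328 CPM in cluster 4 and 171 to 305 CPM in cluster 10. Among quiescent-like cells, Peg3, Mest, Plagl1 and Grb10 were each higher in cluster 5 than in cluster 2 in 4 of 4 libraries, by 1.14 to 1.33 times. Cluster 17, the smallest quiescent-like cluster with 82 cells and a median of 10079.5 UMIs, had Ccl19 and Calcr among its leading genes. Over the 3 libraries with at least 10 of its cells, Mest was there at 31.6 to 160 CPM, Plagl1 at 56.8 to 68.5 CPM and Grb10 at 55.7 to 158 CPM, all below clusters 2 and 5, and Peg3 was at 612 to 1114 CPM. The clusters were not compared by a test.

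**Figure D3:**
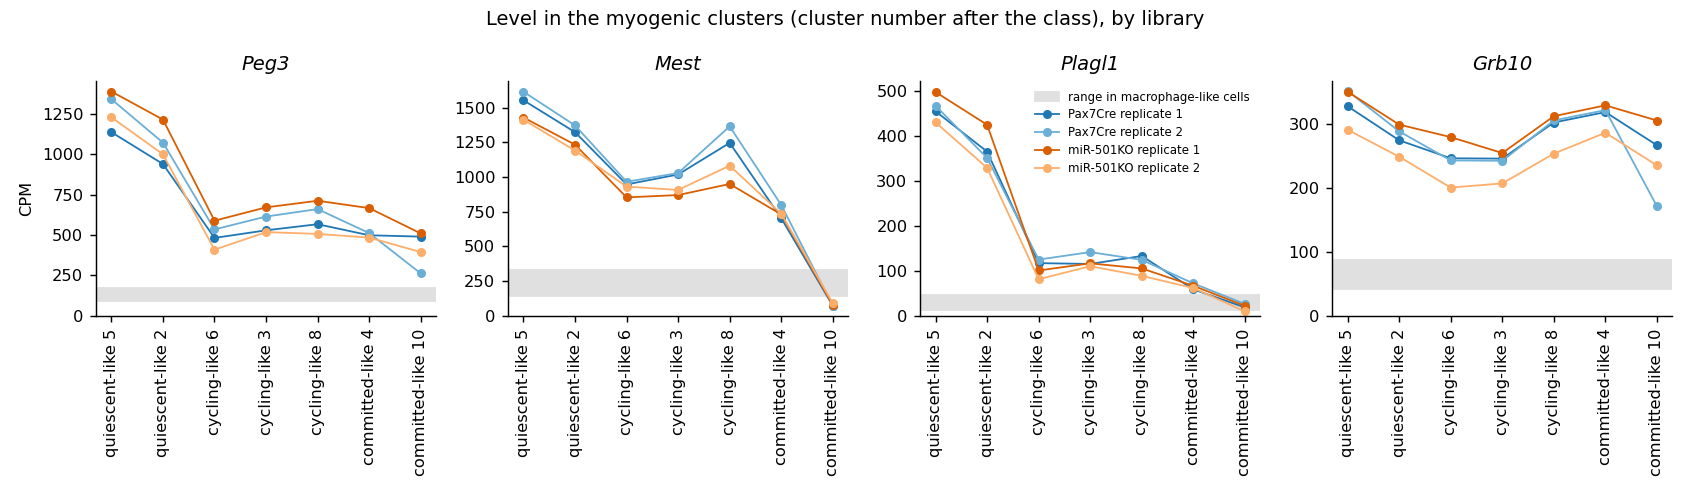
Level (CPM) of Peg3, Mest, Plagl1 and Grb10 in 7 myogenic clusters, with 1 line for each library and a grey band over the range in macrophage-like cells. Quiescent-like cluster 17 is not drawn, and over 3 libraries its Mest was at 31.6 to 160 CPM and its Plagl1 at 56.8 to 68.5 CPM. The order of clusters on the axis groups them by class. Mest falls from 703 to 798 CPM in cluster 4 to 70.5 to 90.6 CPM in cluster 10, under the band, while Peg3 and Grb10 stay above it.

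The comparison of genotypes asks whether loss of miR-501 in the Pax7 lineage goes with another level of these genes. Over all cells, Peg3 was at 618 and 699 CPM in Pax7Cre and 634 and 621 CPM in miR-501KO. Mest was at 1028 and 1111 CPM in Pax7Cre and 829 and 1002 CPM in miR-501KO. Plagl1 was at 143 and 168 against 139 and 140 CPM, Grb10 at 265.0 and 269.8 against 236.3 and 236.0 CPM, and Dlk1 at 23.2 and 14.7 against 26.6 and 18.3 CPM. The genotypes did not overlap in Mest, Plagl1 and Grb10, all lower in miR-501KO, and overlapped in Peg3 and Dlk1. A CPM lower in both miR-501KO than in both Pax7Cre libraries was found for 9.98% of the 15725 genes tested.

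None of the 5 was called in edgeR, nor was any other gene (0.0% of 15725); at an unadjusted p under 0.05 there were 440 genes, and DESeq2 called 11, none of them among the 5. The log2 fold changes were -0.24 (SE 0.13) for Mest, -0.17 (SE 0.09) for Plagl1, -0.20 (SE 0.09) for Grb10, -0.08 (SE 0.10) for Peg3 and 0.22 (SE 0.27) for Dlk1, with edgeR adjusted p of 0.9998 each. On counts simulated for this comparison the same test recovered 84% of genes changed 2-fold and 100% of those changed 4-fold, and smaller folds were not simulated. Since each library pools mice, the p-values measure the spread between libraries. Without clusters 7 and 16, the level in miR-501KO replicate 1 became 755 CPM for Peg3, 887 CPM for Mest, 159 CPM for Plagl1, 273 CPM for Grb10 and 26.0 CPM for Dlk1, and Plagl1 and Grb10 then overlapped between the genotypes while Mest did not. The log2 fold changes were then -0.25 for Mest, -0.13 for Plagl1, -0.15 for Grb10, -0.015 for Peg3 and 0.13 for Dlk1, none of them called. Without mural-like cells, which were 3.40 and 1.20% of the Pax7Cre and 2.97 and 1.70% of the miR-501KO libraries, Dlk1 was at 10.6 and 10.5 CPM in Pax7Cre and 12.7 and 12.9 CPM in miR-501KO, with a log2 fold change of 0.26 that was not called. In miR-501KO replicate 1, 476 Dlk1 UMIs came from clusters 7 and 16, and without these as well its level was 8.72 CPM, below both controls, and the log2 fold change was -0.026 and not called.

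None of the 5 was called within a class either. In quiescent-like cells, Mest was lower in both miR-501KO libraries (log2 fold change -0.22, SE 0.15), and the 4 others overlapped; the share of genes lower without overlap was 8.43%, and 3 of 12680 genes (0.0237%) were called, none of the 5. In cycling-like cells Mest (-0.23, SE 0.15) and Plagl1 (-0.32, SE 0.13, unadjusted p = 0.021 in edgeR) were lower without overlap, with 9.99% of genes lower in this way and 1 of 13393 genes (0.00747%) called. In committed-like cells all 5 overlapped, 10.5% of genes were lower without overlap, and 0.0% of 12126 genes were called in edgeR, with 322 at an unadjusted p under 0.05 and 1 by DESeq2. With the run number as a replicate block, 67 genes of the quiescent-like, 28 of the cycling-like and 11 of the committed-like comparison were called, and none of the 5 was among them. Mest had a fold change below 0 in all 4 comparisons of genotype, which share cells and so are not independent.

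The sign of the Dlk1 difference depended on single libraries. In quiescent-like cells it was at 16.4 and 14.9 CPM in Pax7Cre and 8.72 and 26.6 CPM in miR-501KO, so the miR-501KO libraries lay on both sides of the controls. Without miR-501KO replicate 1 its log2 fold change was 0.76 (edgeR adjusted p = 0.0014), and without miR-501KO replicate 2 it was -0.96 (edgeR adjusted p = 0.0010), with the lone library assumed to vary like the controls. With all 4 libraries it was 0.13 (SE 0.32), and -0.04 with the run as a replicate block, and neither was called.

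Other imprinted genes were set beside the 5, from a list of 47 of which 41 had a row. In committed-like against quiescent-like cells, 31 were tested, of which 10 rose, 18 fell and 3 did not pass the test, a share of 58.1% lower against 36.1% of all genes, with a median log2 fold change of -0.35. With totals in place of TMM factors 8 rose and 19 fell. Those that fell most were Peg10, a retrotransposon-derived gene (-2.48, SE 0.09), Phactr2 (-2.11, SE 0.07), Peg12 (-1.91, SE 0.09) and Sgce, which encodes epsilon-sarcoglycan (-1.89, SE 0.07). Those that rose most were Cdkn1c, the CDK inhibitor p57 (3.01, SE 0.06), Zdbf2 (1.78, SE 0.09), Impact (0.96, SE 0.07) and Nap1l4 (0.91, SE 0.04). Peg10 went from 31.1 to 41.0 CPM over the libraries in quiescent-like to 4.98 to 7.44 CPM in committed-like cells, and Zdbf2 from 43.3 to 63.0 CPM to 128 to 203 CPM, without overlap. Of the 5 genes, Plagl1 fell more than each listed gene.

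**Figure D4:**
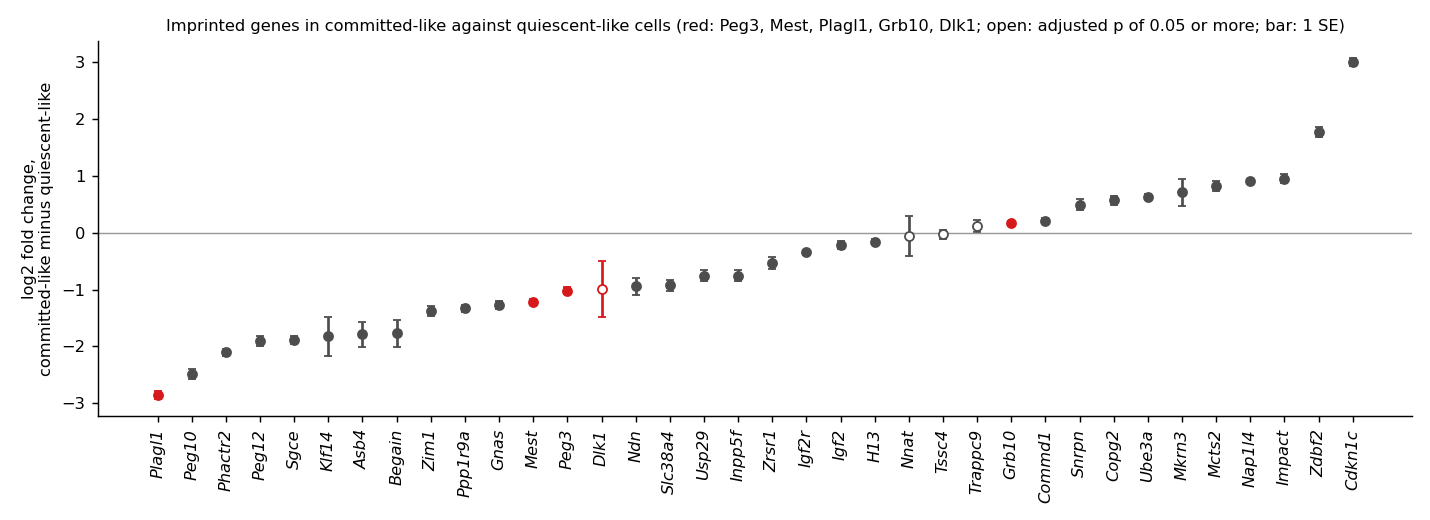
Log2 fold change with bars of 1 SE from edgeR for the tested imprinted genes in committed-like against quiescent-like cells, ordered by value, with Plagl1, Mest, Peg3, Dlk1 and Grb10 in red and genes that did not pass the test as open points. Plagl1 lies lowest at -2.86 and Cdkn1c highest at 3.01.

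In cycling-like cells 4 of the 31 other imprinted genes rose and 20 fell (64.5%, against 35.6% of all genes), with a median of -0.42. Zim1, the neighbour of Peg3, fell by 1.63 (SE 0.08) on the log2 scale, Ppp1r9a by 1.47 (SE 0.06), Phactr2 by 1.33 (SE 0.06) and Igf2 by 1.08 (SE 0.08), and Tssc4 rose by 0.93 (SE 0.07), Nap1l4 by 0.74 (SE 0.04), Commd1 by 0.64 (SE 0.05) and Mcts2 by 0.30 (SE 0.09). Igf2, the imprinted growth factor, was low throughout, at 33.8, 28.2, 50.2 and 23.8 CPM in quiescent-like, 12.98, 14.9, 23.6 and 10.3 CPM in cycling-like and 21.7, 23.8, 41.1 and 17.9 CPM in committed-like cells. Cdkn1c was at 1283, 1183, 978 and 1094 CPM in quiescent-like, 781, 704, 466 and 515 CPM in cycling-like and 9413, 8504, 6202 and 8211 CPM in committed-like cells. Cdkn1c was lower in both miR-501KO libraries in each class and over all cells, and was not called in any. Over all cells its log2 fold change was -0.56 (SE 0.14, edgeR adjusted p = 0.9998). In these comparisons, which share cells, 8.43 to 10.5% of all genes tested were lower without overlap. Committed-like cells, where Cdkn1c was highest, made up 16.20 and 14.98% of the Pax7Cre and 9.07 and 11.15% of the miR-501KO libraries. The part of these shares in the all-cell difference was not tested. No listed imprinted gene was called between genotypes in any of the 4 comparisons.

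Insulin and IGF signalling, the pathway that Grb10 acts on, was read from a list of 21 genes, of which 20 were tested between classes. In committed-like against quiescent-like cells 9 rose and 7 fell (45.0% and 35.0%, against 36.8% and 36.1% of all genes), with a median of -0.04, and with totals 9 rose and 10 fell. The receptor substrates fell, Irs1 by 1.33 (SE 0.08) and Irs2 by 0.91 (SE 0.06) on the log2 scale, as did the receptor Igf1r by 0.43 (SE 0.05). The insulin receptor Insr rose by 0.80 (SE 0.09), and of the mTORC1 branch Rptor rose by 0.98 (SE 0.07), Eif4ebp1 by 0.90 (SE 0.07) and Rps6kb1 by 0.87 (SE 0.04). In cycling-like cells 5 rose and 13 fell (25.0% and 65.0%, against 35.2% and 35.6% of all genes), and with totals 3 rose and 13 fell. Insr was lower by 1.06 (SE 0.09), Irs2 by 1.02 (SE 0.05), Igf1 by 0.98 (SE 0.08) and Igf1r by 0.79 (SE 0.05), and Rheb, Akt1, Eif4ebp1 and Mtor higher by 0.54 (SE 0.04), 0.53 (SE 0.05), 0.52 (SE 0.06) and 0.22 (SE 0.07). Beside these, Grb10 moved by 0.16 and -0.15. None of the 21 was called between genotypes.

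The genes with the pattern most like each of the 5 were sought by Pearson's r of log2(CPM + 1) over 48 sums, 12 clusters in 4 libraries, among 8593 genes, with each library centred on its mean. The clusters include the macrophage-like, mural-like and Schwann-like ones beside the myogenic ones. Sums of 1 library share its depth and its cells' handling, and the values are descriptions. Peg3 was closest to Drp2 (r = 0.98), Clcn5 (0.97) and Cdh15 (0.96), and by Spearman's rho the same 3 genes came first. Clcn5 is the host gene of miR-501, which lies in 1 of its introns. Cdh15 encodes M-cadherin of satellite cells and myoblasts.

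Mest was closest to Upp1, Spats2l and Fgfr4 (r = 0.96, 0.96 and 0.95), Plagl1 to Dcx, Msc and Gxylt2 (0.95, 0.94 and 0.94) and Grb10 to Ttc3, Gpc1 and Tmtc4 (0.92, 0.90 and 0.90). Msc encodes the bHLH repressor musculin, and Fgfr4 is an FGF receptor of the myogenic lineage. Dlk1 was closest to Mylk, Vtn and Ppp1r14a (0.88, 0.87 and 0.86); Mylk and Ppp1r14a act in smooth muscle contraction. By Spearman's rho, 1 of 3 genes stayed among the first 3 for Mest, Grb10 and Dlk1 and 2 of 3 for Plagl1. Among themselves, Peg3, Mest, Plagl1 and Grb10 had r of 0.65 to 0.89 over the 48 sums, and Dlk1 had r of -0.21 to 0.11 with them. Those sums span myogenic and other cells, and r over the myogenic clusters alone was not tested. Across the quiescent-like cells of a library, Spearman's rho between pairs of Peg3, Mest, Plagl1 and Grb10 was 0.054 to 0.27. It was 0.0047 to 0.33 across cycling-like and 0.062 to 0.29 across committed-like cells.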

How the data were processed

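Each library was made by droplet capture with 3′ counting. The authors aligned the reads and counted UMIs with Cell Ranger, version 6.0.2 per the file headers, and the labels name GRCm39. The deposited values are whole-number counts of UMIs per gene and barcode, not normalized. Barcodes entered if they held 5000 or more UMIs and 1000 or more genes. Clusters were made with scanpy 1.11.5 and leidenalg 0.10.2 (2000 variable genes, 30 components, resolution 0.5), leaving out the genes described and 68 listed genes, and were named from marker lists. Doublets were not removed, and leaving out the top 5% of Scrublet scores in each library was an alternative.

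UMIs were summed per library, or per library and class, and tested with edgeR 4.0.16 (TMM, filterByExpr, quasi-likelihood test, R 4.3.3), with Benjamini-Hochberg adjustment over all genes and a threshold of 0.05. SE is the absolute log2 fold change over the square root of F. The labels number both genotypes by run, so the run was an alternative block. Run differences correlated between genotypes with r = 0.23 for all cells, 0.03 for the quiescent-like, -0.01 for the cycling-like and -0.17 for the committed-like class. DESeq2 1.42.0 was an alternative. The procedure was tested on simulated data. For shares of cells, each cell was thinned to 5000 UMIs, and limits cover counting error only. The genes and lists were chosen with earlier results of these data known, and at most 4 called genes of a list in each direction were named, plus Igf2 and Cdkn1c; a result that this rule would name is not reported here. Totals in place of TMM factors, and leaving out mural-like cells with or without clusters 7 and 16, were chosen after seeing the data.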

Additional observations from a re-analysis of the deposited data

How the results depend on the processing

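The number of genes called between genotypes depended on the settings, while none of the 5 genes was called in any of those fits except Dlk1 without single libraries. Over all cells DESeq2 called 11. In quiescent-like cells 67 were called with the run as a replicate block, 9 with RLE factors, 5 by DESeq2, 110 without a filter, 0 from 2000 UMIs, 13 at no more than 10% mitochondrial UMIs, 1 without the top Scrublet scores and 0 with totals. In cycling-like cells these were 28 with the block, 2 by DESeq2, 51 without a filter, 2 from 2000 UMIs, 2 without the top Scrublet scores, 0 with totals and 0 at resolution 1.0, and in committed-like cells 11 with the block and 1 by DESeq2. Leaving out 1 library at a time gave 0 to 3 calls over all cells, 14 to 164 for the quiescent-like, 2 to 41 for the cycling-like and 0 to 65 for the committed-like comparison. Classing by Myog and Pax7 UMIs gave 6361 calls between classes. The cause was not tested.

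With the run as a replicate block, none of the 5 genes was called, with a smallest adjusted p of 0.962 (edgeR), and run numbers crossed between genotypes, an alternative chosen after seeing the data, gave 0 calls in committed-like cells.

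Signs that turned were of small values, except for Dlk1 when 1 library was left out, where large values of both signs arose. Over all cells Dlk1 was -0.026 without mural-like cells and clusters 7 and 16. In quiescent-like cells Dlk1 was -0.0439 with the block and -0.0178 from 2000 UMIs, and Plagl1 was 0.0173 without the top Scrublet scores, 0.0553 with totals and 0.0107 at resolution 1.0. In cycling-like cells Peg3 was 0.0124 from 2000 UMIs, 0.0033 at low mitochondrial share and 0.0194 with totals. Grb10 between genotypes in committed-like cells was 0.0189 with totals, and committed-like against quiescent-like it was -0.0181 with totals and -0.0038 by Myog and Pax7 UMIs. Leaving out 1 library moved Dlk1 from -0.0973 to 0.6193 for all cells, -0.9634 to 0.7551 for the quiescent-like, -1.329 to 0.1437 for the cycling-like and -2.385 to 1.346 for the committed-like class. It moved Peg3 from -0.0058 to 0.1354, -0.1895 to 0.1648 and -0.0404 to 0.2837 in the same 3 classes, Plagl1 from -0.0813 to 0.0493 in quiescent-like cells, and Grb10 from -0.2248 to 0.0333 in cycling-like and -0.1045 to 0.0686 in committed-like cells.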

Other observations

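Clusters without a name also held these genes. Cluster 1, 1797 cells led by Spp1, had Peg3 at 683 to 827 CPM, Mest at 1131 to 1449 CPM, Plagl1 at 90.7 to 117 CPM and Grb10 at 254 to 282 CPM over the 4 libraries. Its Mest level was 0.884 to 1.14 times that of quiescent-like cells of the same library, and its Plagl1 level 0.205 to 0.2995 times. Cluster 9, 497 cells with a median of 7352 UMIs of which 28.2% were mitochondrial, had Peg3 at 999 to 1267 CPM and Mest at 570 to 768 CPM. Cluster 7, all 659 cells of which came from miR-501KO replicate 1, had Mest at 581 CPM, Peg3 at 121 CPM, Grb10 at 78.3 CPM, Plagl1 at 54.3 CPM and Dlk1 at 30.5 CPM.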
